A study of Mus musculus with 8 samples.

Results

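The 10 genes described here are targets of the transcription factor NRF2 or handle haem and iron, and they were followed in RAW264.7, a macrophage-like mouse cell line transformed by Abelson murine leukaemia virus. They were chosen as the rows of the count table that map, through GENCODE mouse M21, to Hmox1, Slc7a11, Slc48a1, Nqo1, Gclm, Gclc, Txnrd1, Srxn1, Fth1 and Ftl1, which is 10 of 55450 genes. The study sequenced total RNA from cells that carry an shRNA against Dis3l2 (shDis3l2), an exoribonuclease that degrades uridine-tailed RNAs, and from cells that carry a non-silencing shRNA (shNS). The groups were shDis3l2 with doxycycline (3 libraries), shNS with doxycycline (3 libraries), shDis3l2 without doxycycline (1 library) and shNS without it (1 library). Doxycycline, commonly used to switch on an shRNA, was given at 1 µg/mL with daily renewal, and RNA was taken from all groups at day 4. All cells grew in DMEM with serum, antibiotics and glutamine. The labels name 1 shRNA against Dis3l2 and do not say whether a line is a clone or a pool. Nothing in the labels says that replicates were separate cultures, so p-values reflect only how much these libraries varied, and that variation may be technical.

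NRF2, encoded by Nfe2l2, is normally bound by KEAP1 and degraded, and it escapes this when oxidants or electrophiles modify KEAP1. It then pairs with small MAF proteins at antioxidant response elements and raises genes for glutathione synthesis, thioredoxin reduction, detoxification and iron storage, while BACH1 occupies many of the same sites until haem binds it. Macrophages take up red cells and break down their haem, so haem import from the phagolysosome, haem breakdown, ferritin storage and iron export meet in this cell type. Ferritin mRNAs are also held back in translation by iron regulatory proteins, which bind a hairpin near the 5′ end when iron is scarce.

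Several of these control sequences can be read in the mouse reference, and those that bear on the members are shown first. RefSeq windows (GRCm38.p6, 250 bases before to 50 after a transcript start) matched 7 of the 10 members with 10 windows in all. There was none for Hmox1, Slc48a1 or Gclc. The window of Slc7a11, a member that was lower in shDis3l2 cells, holds the amino acid response element in both orientations, a motif bound by ATF4 (chr3:50443564-50443863, minus strand, capitals mark TGATGCAAA and its reverse complement TTTGCATCA).
Slc7a11 promoter: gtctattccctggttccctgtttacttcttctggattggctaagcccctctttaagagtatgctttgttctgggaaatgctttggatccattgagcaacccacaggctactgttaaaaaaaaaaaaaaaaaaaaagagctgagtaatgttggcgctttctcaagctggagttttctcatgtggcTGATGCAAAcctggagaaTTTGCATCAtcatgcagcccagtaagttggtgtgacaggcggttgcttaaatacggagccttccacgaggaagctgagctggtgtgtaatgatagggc
The motif pair starts 66 and 48 bases before the start, and 0.271% of 32851 mouse windows hold this motif on either strand. The window of Srxn1, which did not pass the test, holds the AP-1 site TGACTCA, read here as TGAGTCA, in 2 copies and 1 antioxidant response element core (chr2:152105274-152105573, plus strand, capitals mark all 3).
Srxn1 promoter: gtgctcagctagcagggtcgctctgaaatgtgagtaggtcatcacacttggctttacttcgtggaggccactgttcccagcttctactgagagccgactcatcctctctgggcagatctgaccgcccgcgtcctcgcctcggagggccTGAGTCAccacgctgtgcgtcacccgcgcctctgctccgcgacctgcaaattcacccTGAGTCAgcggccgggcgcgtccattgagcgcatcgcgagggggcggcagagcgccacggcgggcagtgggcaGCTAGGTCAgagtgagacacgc
The core was searched as TGACNNNGC on both strands, and 12.4% of all windows hold it, against 5.2% for the AP-1 site. Among the members it was also in the windows of Gclm and of 1 Txnrd1 start, shown with 15 bases on each side and the core in capitals (chr3:122245408-122245446 and chr10:82859099-82859137, both plus strand). These 3 genes are the members with a core in the searched window, and none of them passed the test below.
Gclm: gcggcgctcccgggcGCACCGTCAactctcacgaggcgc
Txnrd1: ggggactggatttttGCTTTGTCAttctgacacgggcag
No window of Ftl1, Fth1 or Nqo1 held any of the 3 motifs, and sequence outside the windows was not searched for them. The ferritin pair carries the iron responsive element in the 5′ UTR of the GENCODE transcripts (GRCm38). The bulged C and the CAGTGN loop are in capitals (Fth1 chr19:9982732-9982760 plus strand, Ftl1 chr7:45459779-45459807 minus strand, Ftl1-ps1 chr13:74406428-74406456 plus strand).
Fth1: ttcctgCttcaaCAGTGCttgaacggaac
Ftl1: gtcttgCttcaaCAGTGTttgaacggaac
Ftl1-ps1: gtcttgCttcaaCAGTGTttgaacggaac
Ftl1 and its processed copy Ftl1-ps1 share this element, and their transcripts were identical at 906 of 910 aligned bases (99.6%), which matters for how reads were divided between them.

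The 8 libraries held 30341847 to 45557831 counts, with 17426 to 18322 genes detected. Levels are given as CPM, counts scaled to library size with TMM factors. All 10 macrophage markers were detected and their summed level was 6842 to 9776 CPM in shDis3l2 and 7983 to 12020 CPM in shNS with doxycycline, while markers of fibroblasts, epithelium and T and B cells summed to at most 0.0584 CPM, the 8 erythroid markers to at most 0.527 CPM, and the haemoglobin genes were at 0. Of these 10 markers 5 had a positive and 5 a negative log2 fold change between the lines, with a median of -0.09. Adgre1 and Aif1 were called lower in shDis3l2 by edgeR (-2.7 and -1.40, adjusted p = 0.0368 and 0.0470), DESeq2 also called Cd68 lower and Csf1r higher, and the part of this in the members' differences was not tested. The shNS libraries did not lie together. On the first principal component (58.5% of the variance) the shDis3l2 libraries sat between -67.1 and -56.2, while shNS with doxycycline lay at 15.3, 106.5 and 23.7 and shNS without it at 102.2, so shNS replicate 2 stood with the untreated shNS library.

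Dis3l2 itself had 12, 13.5 and 14.9 CPM in shDis3l2 with doxycycline, against 33.0, 28.7 and 22.0 CPM in shNS with doxycycline (log2 fold change -1.05, SE 0.19, adjusted p = 0.0216, edgeR's quasi-likelihood test). Without doxycycline it had 28.6 CPM in shDis3l2 and 29.7 CPM in shNS. The groups with doxycycline were apart in the direction of the labels, and the untreated lines were close to each other.

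The comparison of the lines in the presence of doxycycline asks how these genes differed where Dis3l2 was lower. Of the members, 4 were called lower in shDis3l2 than in shNS: Hmox1 and Slc48a1, which handle haem, Ftl1, which stores iron, and Slc7a11, which imports cystine. No member was called higher by edgeR, DESeq2 or limma-voom, and 1, Gclc, had a positive log2 fold change at an unadjusted p under 0.05 by edgeR. Of all 13752 tested genes 2862 were under that p in either direction. The 4 enzymes of glutathione synthesis and thiol reduction, Gclc, Gclm, Txnrd1 and Srxn1, and the ferritin heavy chain Fth1 did not pass, and Nqo1 was too low to be tested. So 4 of 9 tested members were called lower and 0 higher, where 4.01% of 13752 genes were called lower and 2.13% higher (6.14% in all). The members were chosen with earlier results of these data known, so these shares are no test of the list. The median log2 fold change was -1.32 over the 9 tested members and -0.00 over all tested genes. For 5 members every shDis3l2 library lay below every shNS library, an order that 14.4% of tested genes showed, with 13.4% in the reverse order and 27.8% in either. Fewer cells expressing a gene and less RNA per cell cannot be told apart in such bulk libraries.

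Hmox1 encodes haem oxygenase 1, which opens the haem ring and releases iron, carbon monoxide and biliverdin (ENSMUSG00000005413, chromosome 8, 75093621 to 75100589, plus strand). It had 50.5, 35.3 and 37.6 CPM in shDis3l2 replicates 1, 2 and 3, against 80.9, 407 and 362 CPM in shNS. The shDis3l2 libraries were all low and close together, while shNS replicate 1 was far below the other two and only somewhat above the shDis3l2 range. The mean was 41.1 ± 8.23 CPM in shDis3l2 and 283 ± 177 CPM in shNS (SD, n = 3 each), 14.5% of the shNS level. The log2 fold change was -2.78 (SE 0.59, adjusted p = 0.0485). This call sat at the threshold: the adjusted p was 0.110, 0.214 and 0.197 without shDis3l2 replicate 1, 2 or 3 and 0.0608 and 0.113 without shNS replicate 2 or 3, and without shNS replicate 1 it was 0.00217. Over 16 alternatives the log2 fold change stayed between -3.20 and -2.42, 7 kept the call and the adjusted p ran from 2e-07 to 0.214.

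Slc48a1 encodes HRG1, which carries haem out of the phagolysosome (ENSMUSG00000081534, chromosome 15, 97778520 to 97792692, plus strand). It had 27.1, 21.5 and 21.8 CPM in shDis3l2, against 36.8, 100.4 and 81.5 CPM in shNS. As for Hmox1, the groups did not overlap and shNS replicate 1 was the lowest shNS library. The mean was 23.5 ± 3.14 CPM in shDis3l2 and 72.9 ± 32.7 CPM in shNS (SD, n = 3 each), with a log2 fold change of -1.63 (SE 0.35, adjusted p = 0.0458). Without shDis3l2 replicate 1, 2 or 3 the adjusted p was 0.111, 0.193 and 0.181, without shNS replicate 2 or 3 it was 0.0521 and 0.0987, and without shNS replicate 1 it was 0.00454. Over 16 alternatives the log2 fold change was -1.93 to -1.33, with 7 calls and adjusted p from 6.00e-05 to 0.193.

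Ftl1 encodes the ferritin light chain, which helps iron form a mineral core (ENSMUSG00000050708, chromosome 7, 45457944 to 45459884, minus strand). It had 1750, 959 and 1019 CPM in shDis3l2, against 2440, 4317 and 5224 CPM in shNS. The highest shDis3l2 library, replicate 1, stayed below the lowest shNS library, also replicate 1. The log2 fold change was -1.68 (SE 0.35, adjusted p = 0.0367), with means of 1243 ± 440 CPM in shDis3l2 and 3994 ± 1420 CPM in shNS (SD, n = 3 each). The adjusted p was 0.0525, 0.156 and 0.143 without shDis3l2 replicate 1, 2 or 3, and 0.0535 and 0.0774 without shNS replicate 2 or 3, within a range of 1.31e-05 to 0.156 over 16 alternatives, 10 of which kept the call. Ftl1-ps1, the copy whose element is printed above, went with it at a log2 fold change of -1.76 (adjusted p = 0.0415). RSEM divides reads between such copies, and the 2 values are not independent: Ftl1 had 23.2 to 25.9 counts for each Ftl1-ps1 count in every library. Adding the pseudogene counts to Ftl1 and Fth1 left the number of members called at 4.

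Fth1 encodes the ferritin heavy chain, whose ferroxidase centre oxidises iron for storage (ENSMUSG00000024661, chromosome 19, 9980598 to 9985098, plus strand). It had 859, 653 and 599 CPM in shDis3l2, against 1274, 1218 and 2791 CPM in shNS. The groups did not overlap, and shNS replicate 3 stood far above the other libraries. The log2 fold change of -1.32 (SE 0.35) had an adjusted p of 0.0756. Without shNS replicate 3 the log2 fold change was -0.83 (adjusted p = 0.0727), and without shNS replicate 2 it was -1.53 (adjusted p = 0.0409). Over 16 alternatives it ran from -1.53 to -0.83 with adjusted p from 0.00133, by DESeq2, to 0.263, and 2 of them called it.

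Slc7a11 encodes the light chain of the cystine and glutamate exchanger, which supplies cysteine for glutathione (ENSMUSG00000027737, chromosome 3, 49892526 to 50443614, minus strand, promoter printed above). It had 24.8, 10.9 and 22.1 CPM in shDis3l2, against 62.4, 63.2 and 57.9 CPM in shNS. Here the 3 shNS libraries lay close together, unlike for Hmox1, and the spread was in shDis3l2, where replicate 2 was lowest. The mean was 19.3 ± 7.41 CPM in shDis3l2 and 61.2 ± 2.86 CPM in shNS (SD, n = 3 each), and the log2 fold change was -1.66 (SE 0.29, adjusted p = 0.0212). It kept its call in 14 of 16 alternatives, the most of any member. The exceptions were the fits without shDis3l2 replicate 1 (adjusted p = 0.0507) and replicate 3 (0.0714), in a range of 1.48e-06 to 0.0714.

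**Figure D1:**
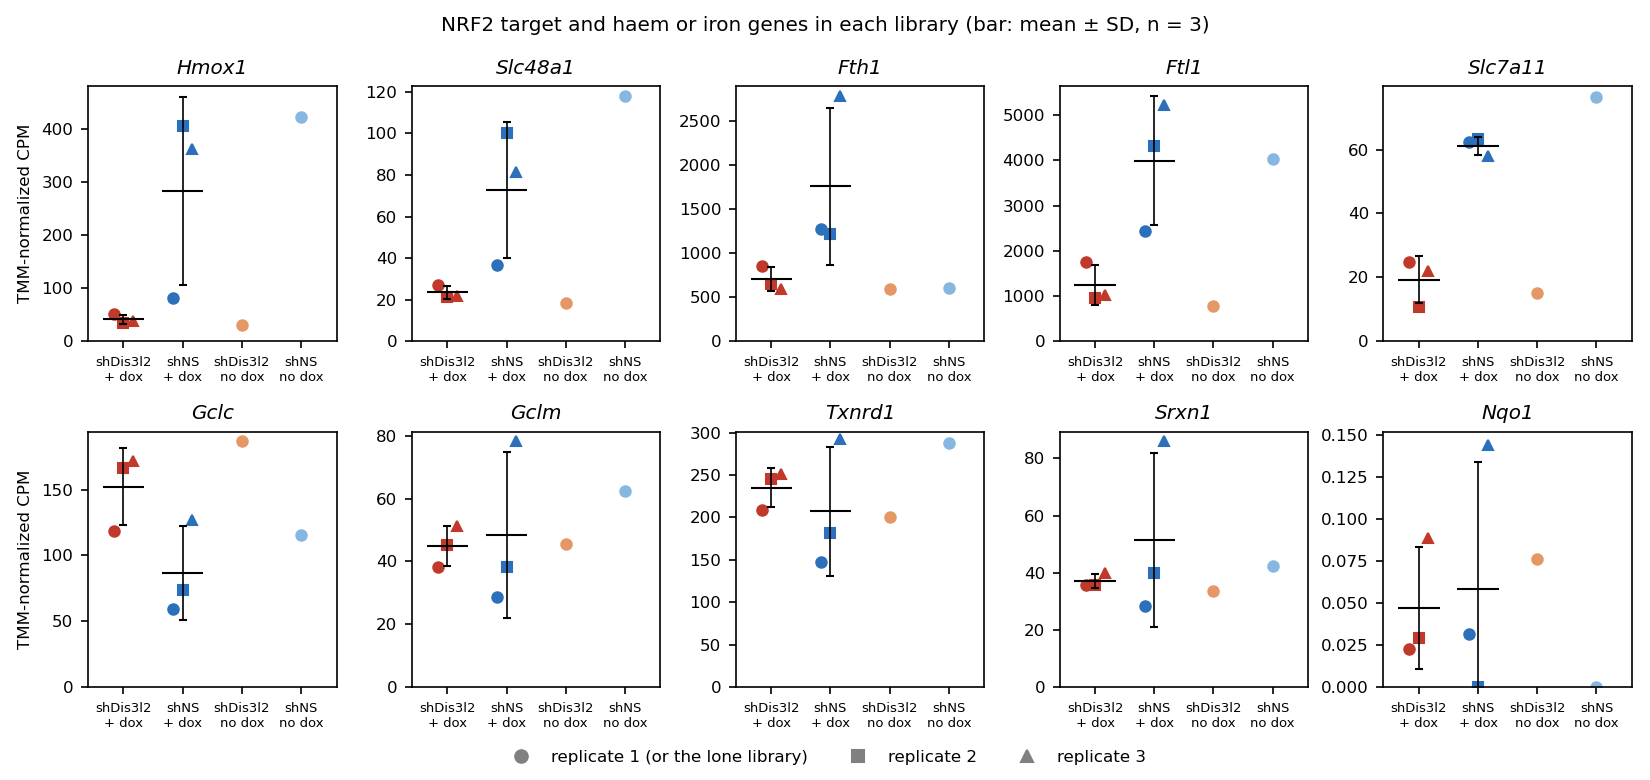
Each panel plots one gene's TMM-normalized CPM (vertical axis, linear, starting at 0) in the 8 libraries. Points are libraries, horizontal lines with bars are mean ± SD over the 3 libraries with doxycycline, and shDis3l2 stands left of shNS. Hmox1, Slc48a1, Ftl1 and Slc7a11 were lower in every shDis3l2 library than in every shNS library, with and without doxycycline.

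None of the glutathione and thioredoxin enzymes passed the test. Gclc, the catalytic subunit of glutamate-cysteine ligase, which makes the first bond of glutathione, had 118.5, 166 and 172 CPM in shDis3l2, against 59.3, 73.6 and 127 CPM in shNS (ENSMUSG00000032350, chromosome 9, 77754535 to 77794485, plus strand). It was the member with the largest positive log2 fold change, 0.82 (SE 0.30), but shDis3l2 replicate 1 lay below shNS replicate 3 and the adjusted p was 0.174. Without shNS replicate 3 the log2 fold change was 1.19 and the adjusted p 0.0347, the 1 call among 16 alternatives, whose adjusted p otherwise reached 0.415. Gclm, its modifier subunit, had 38.3, 45.3 and 51.2 CPM in shDis3l2, against 28.6, 38.4 and 78.4 CPM in shNS (ENSMUSG00000028124, chromosome 3, 122245557 to 122270732, plus strand). Its shNS values enclosed all shDis3l2 values, and the log2 fold change of -0.10 (SE 0.36, adjusted p = 0.914) was positive in 4 of 16 alternatives. Gclc over Gclm, per kilobase of all annotated exons, was 5.17, 6.13 and 5.61 in shDis3l2, against 3.47, 3.20 and 2.7 in shNS. That length can differ from the length of a single transcript, so the ratio does not count transcripts. This ratio was chosen after its values were seen, and it did not overlap between the lines, with 6.85 in shDis3l2 and 3.10 in shNS without doxycycline.

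Gclc also had neighbours with positive log2 fold changes. Of the 37 tested genes within 5 Mb on either side of it, 29 had a positive log2 fold change with doxycycline, with a median of 0.54 against -0.00 over all genes. Without doxycycline 31 of the 37 were positive, with a median of 0.61 against 0.01. The part of this neighbourhood in the Gclc values was not tested.

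Txnrd1, the cytosolic thioredoxin reductase, had 209, 245 and 252 CPM in shDis3l2, against 148, 182 and 293 CPM in shNS (ENSMUSG00000020250, chromosome 10, 82833951 to 82897712, plus strand). Its log2 fold change was 0.18 (SE 0.25, adjusted p = 0.750), and the shNS range enclosed the shDis3l2 libraries. Srxn1, sulfiredoxin, which restores overoxidised peroxiredoxins, had 35.6, 35.8 and 39.9 CPM in shDis3l2, against 28.4, 40.0 and 86.0 CPM in shNS (ENSMUSG00000032802, chromosome 2, 152105516 to 152111376, plus strand). The shDis3l2 libraries were nearly level, whereas shNS replicate 3 was high, and the log2 fold change was -0.47 (SE 0.38, adjusted p = 0.568). Without shNS replicate 3 it was 0.11. Nqo1, the quinone reductase often used as an NRF2 readout, had 1, 1 and 3 counts in shDis3l2 and 1, 0 and 5 counts in shNS with doxycycline, and 3 counts in shDis3l2 and 0 counts in shNS without it (ENSMUSG00000003849, chromosome 8, 107388225 to 107403206, minus strand). At these counts no difference between the lines was detectable.

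The order of the shNS libraries varied from member to member. For Hmox1 and Slc48a1 replicate 1 was the lowest and the untreated library the highest, and the values of these 2 genes spanned 1.70-fold and 1.49-fold over the 4 shDis3l2 libraries, against 5.24-fold and 3.20-fold over the 4 shNS libraries. For Gclc, Gclm, Txnrd1 and Srxn1 replicate 1 was also lowest, but replicate 3 was highest, with shNS spans of 2.14-fold, 2.75-fold, 1.98-fold and 3.03-fold. Ftl1 had the same lowest and highest shNS libraries, with a span of 2.14-fold. Fth1 spanned 1.45-fold in shDis3l2 and 4.58-fold in shNS, where the untreated library was lowest and replicate 3 highest. Slc7a11 spanned 2.28-fold in shDis3l2 and 1.32-fold in shNS, where replicate 3 was lowest and the untreated library highest. Since shNS replicate 2 stood apart on the first principal component, the members were also fitted without it: Slc7a11 and Fth1 were then called lower, and Hmox1, Slc48a1 and Ftl1 were not, at log2 fold changes of -2.42, -1.33 and -1.62.

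**Figure D2:**
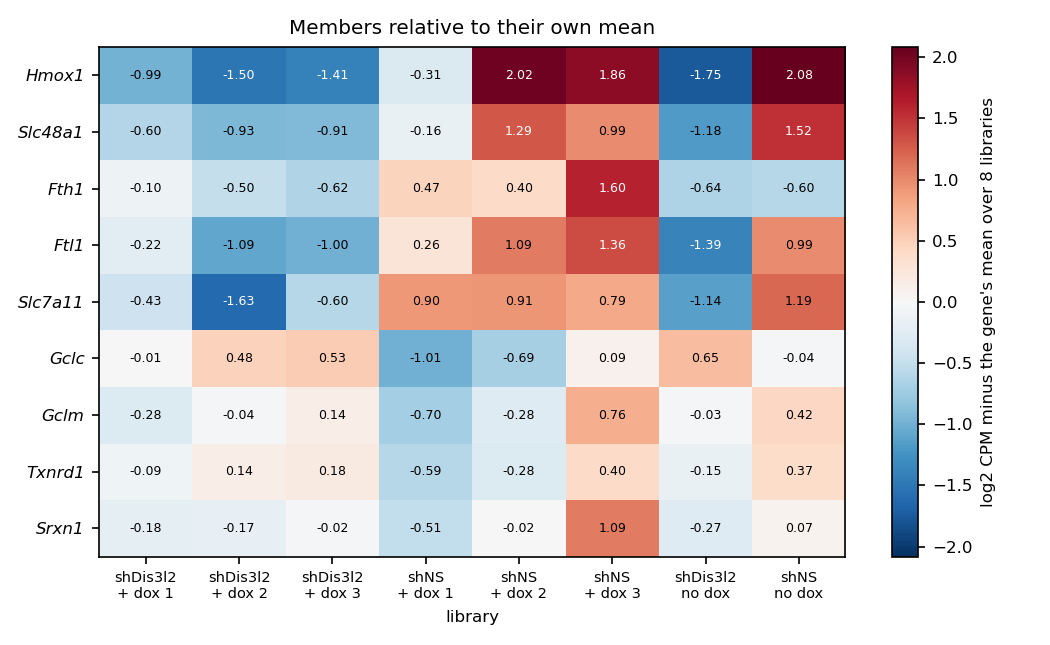
Colour and printed values give each gene's log2 CPM minus its mean over the 8 libraries, with shDis3l2 columns left of shNS columns within each treatment. The upper 5 rows are below 0 in every shDis3l2 column, and in shNS so are Hmox1 (-0.31) and Slc48a1 (-0.16) in replicate 1 and Fth1 (-0.60) without doxycycline. The highest shNS value is in replicate 3 for Fth1, Ftl1 and the lower 4 rows.

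Without doxycycline each line had 1 library, so these differences have no replicate check, and the intervals (95%) cover counting error only. Hmox1 had 29.7 CPM in shDis3l2 and 424 CPM in shNS, a ratio of 0.0701 (0.0660 to 0.0744) and a log2 ratio of -3.83. Slc48a1 had 18.2 CPM in shDis3l2 and 118 CPM in shNS, a ratio of 0.154 (0.142 to 0.167). The log2 ratios of both haem genes were larger in size than their fitted fold changes with doxycycline, and Dis3l2 was at a like level in these 2 libraries. Ftl1 had 774 CPM in shDis3l2 and 4030 CPM in shNS (ratio 0.192, 0.190 to 0.195), and Slc7a11 15.2 CPM in shDis3l2 and 76.6 CPM in shNS (ratio 0.199, 0.182 to 0.217). Fth1 was the exception, at 593 CPM in shDis3l2 and 610 CPM in shNS, a ratio of 0.973 (0.955 to 0.991). The 2 ferritin chains thus did not keep a fixed proportion. Ftl1 over Fth1, per kilobase of all annotated exons, was 5.27, 3.80 and 4.40 in shDis3l2 against 4.96, 9.18 and 4.85 in shNS with doxycycline. Without doxycycline it was 3.38 in shDis3l2 against 17.1 in shNS. The exon lengths were 3469 bases for Fth1 and 1340 for Ftl1, against 929 and 968 in the GENCODE transcripts searched for the hairpin. The ratios can thus be compared between libraries but do not count transcripts. These ratios were chosen after their values were seen. Gclc had 187 CPM in shDis3l2 and 116 CPM in shNS (ratio 1.62, 1.56 to 1.68), again in the direction opposite to the haem genes. Gclm, Txnrd1 and Srxn1 had ratios of 0.732, 0.697 and 0.790.

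With the 8 libraries fitted together and doxycycline as a covariate, 4 libraries per line, the line effect of Hmox1 was -3.04 on the log2 scale (SE 0.53, adjusted p = 0.0158). Slc48a1 was at -1.90 (SE 0.34, adjusted p = 0.0168), Ftl1 at -1.86 (SE 0.31, adjusted p = 0.0115) and Slc7a11 at -1.83 (SE 0.26, adjusted p = 0.00718). These were the 4 members called, all lower, beside 6.50% of 14638 genes called lower and 3.68% called higher. They were also the 4 members for which all 4 shDis3l2 libraries lay below all 4 shNS libraries, as did 10.2% of genes, while 8.14% had the reverse order. Fth1 was at -1.01 (adjusted p = 0.120) and Gclc at 0.78 (adjusted p = 0.0870).

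**Figure D3:**
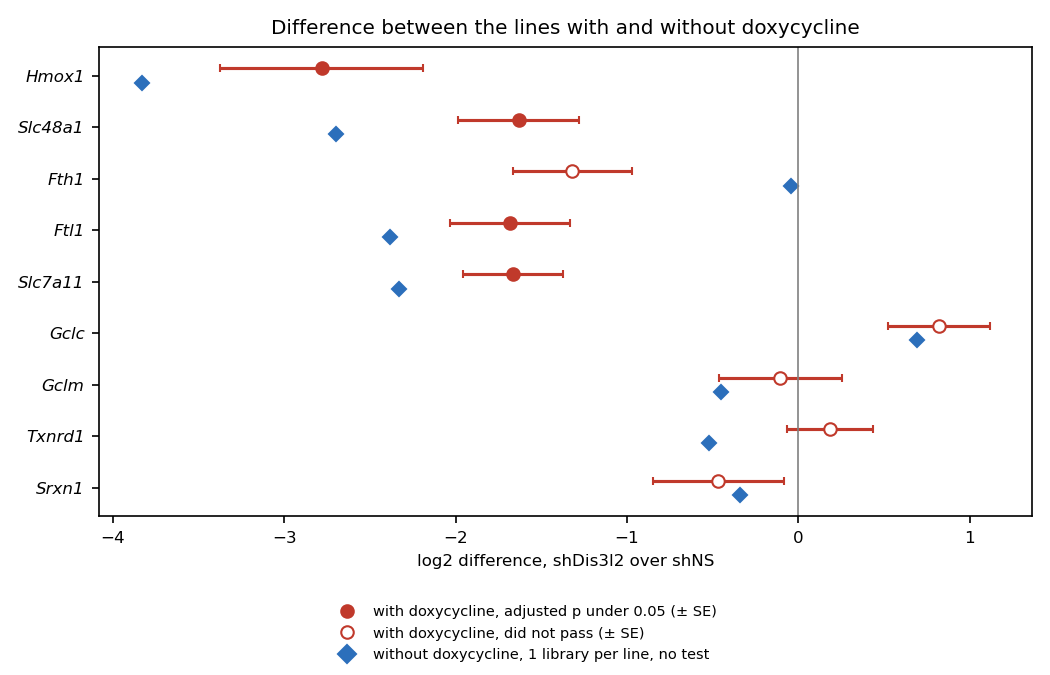
The horizontal axis gives the log2 difference of shDis3l2 over shNS. Circles with bars are the fitted fold change ± SE with doxycycline (3 libraries per line), filled where the adjusted p was under 0.05, and diamonds are the log2 ratio of the single libraries without doxycycline. Diamonds lie left of the circles for Hmox1, Slc48a1, Ftl1, Slc7a11, Gclc, Gclm and Txnrd1, and right of them for Fth1 and Srxn1. Fth1 was at -1.32 with doxycycline and -0.04 without it, and Txnrd1 at 0.18 with it and -0.52 without it.

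Doxycycline against no doxycycline asks whether the members moved with the drug within a line. No member was called, nor any of 15250 genes (0%), by edgeR in shDis3l2, in shNS or in the difference between the lines. At an unadjusted p under 0.05 there were 503, 646 and 577 genes in these 3 comparisons, DESeq2 called 64, 72 and 34, and limma-voom 0, 1 and 0. Without shNS replicate 2, edgeR called 544 genes for doxycycline in shNS and 121 for the difference. No member was called by DESeq2 or limma-voom either. In shNS, Fth1 alone among the members had an unadjusted p under 0.05, with 1274, 1218 and 2791 CPM with doxycycline against 610 CPM without it (log2 fold change 1.53, SE 0.55, adjusted p = 0.990). The same change in shDis3l2 was 0.25 (SE 0.50), and the difference between the 2 changes was -1.28 (SE 0.70, adjusted p = 1). Hmox1 and Slc48a1 had log2 fold changes of 0.47 and 0.37 with doxycycline in shDis3l2 and of -0.58 and -0.69 in shNS. Ftl1 was at 0.68 in shDis3l2 and -0.01 in shNS, and Slc7a11 at 0.34 in shDis3l2 and -0.33 in shNS. Each lone untreated library was assumed here to vary like the replicated ones. Dis3l2 was not called by edgeR in shDis3l2 either, at 28.6 CPM without doxycycline and 12, 13.5 and 14.9 CPM with it. The lack of calls therefore does not show that the members did not move.

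Levels of different genes were compared per kilobase of exon, taking all annotated exons of a gene as its length. That length can exceed a single transcript, as for Fth1 (3469 bases against 929 in Fth1-201), and the order depends on it. In shDis3l2 with doxycycline the order was Ftl1 (927 ± 329 CPM per kb), Fth1 (203 ± 39.6), Gclc (40.4 ± 7.78), Txnrd1 (33.2 ± 3.27), Hmox1 (23.5 ± 4.70), Srxn1 (13.2 ± 0.861), Slc48a1 (8.53 ± 1.14), Gclm (7.14 ± 1.02), Slc7a11 (1.38 ± 0.532) and Nqo1 (0.0302 ± 0.0234; SD, n = 3). Gclc and Txnrd1 overlapped between libraries there, as did Slc48a1 and Gclm. In shNS with doxycycline Ftl1 (2980 ± 1060 CPM per kb) and Fth1 (508 ± 257) again led, and Hmox1 came next (162 ± 101), above Txnrd1 (29.3 ± 10.7). Slc48a1 (26.5 ± 11.9), Gclc (23.0 ± 9.44) and Srxn1 (18.2 ± 10.8) followed and overlapped with each other and with Txnrd1, and Srxn1 also with Gclm. Gclm (7.70 ± 4.20), Slc7a11 (4.39 ± 0.205) and Nqo1 (0.0376 ± 0.0487) were lowest in shNS (SD, n = 3). Hmox1 was thus the fifth member by this measure in shDis3l2 and the third in shNS.

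The wider pathway was read from lists of related genes, also chosen with earlier results of these data known. Among haem breakdown and transport genes other than the members, edgeR called 3 of 10 tested lower and none higher, as did DESeq2 and limma-voom, where 4.01% of all tested genes were called lower and 2.13% higher by edgeR. Over all 13752 tested genes DESeq2 called 1104 lower and 644 higher, and limma-voom 530 lower and 320 higher. The median log2 fold change of these haem genes was -0.64 and all 10 had a negative sign, as had 50.3% of all tested genes. Abcg2, an exporter of porphyrins and drugs, had 0.137, 0.146 and 0.148 CPM in shDis3l2, against 10.3, 16.0 and 14.2 CPM in shNS (log2 fold change -6.52, SE 0.30, adjusted p = 1.89e-04). Lrp1, the receptor for haem bound to haemopexin, averaged 1008 ± 188 CPM in shDis3l2 and 2349 ± 490 CPM in shNS (SD, n = 3 each; log2 fold change -1.22, adjusted p = 0.0234). Flvcr1, a choline carrier first described as a haem exporter, averaged 31.7 ± 1.63 CPM in shDis3l2 and 59.0 ± 13.7 CPM in shNS (SD, n = 3 each; log2 fold change -0.89, adjusted p = 0.0332). Lrp1 lost its call without shDis3l2 replicate 1, 2 or 3 or shNS replicate 3 (adjusted p 0.0542 to 0.116), and Flvcr1 whenever a library other than shNS replicate 1 was left out (0.0522 to 0.163). Flvcr1 also lost it with the replicate number as a block (0.0861). Of 12 haem synthesis genes edgeR called 0, with 3 at an unadjusted p under 0.05, beside 2862 of all 13752 tested genes. DESeq2 and limma-voom called 0 of these 12. Their median was -0.09, and Cpox, coproporphyrinogen oxidase, had the smallest adjusted p at a log2 fold change of -0.43 (SE 0.13, adjusted p = 0.108). Over all 8 libraries with doxycycline as a covariate Cpox was called lower, at -0.50 (adjusted p = 0.0284).

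Among 19 tested iron genes edgeR called 2 lower and none higher, beside 4.01% and 2.13% of all tested genes, and the median log2 fold change was -0.16. At an unadjusted p under 0.05 by edgeR there were 6 lower and 4 higher, beside 2862 of all 13752 tested genes in either direction. DESeq2 called 4 lower and 1 higher, beside 1104 lower and 644 higher of all tested genes. The 1 higher was Ireb2, which encodes iron regulatory protein 2 (log2 fold change 0.62 by edgeR, SE 0.15, adjusted p = 0.0518). Aco1, whose protein is either cytosolic aconitase or the iron regulatory protein 1 that binds the hairpins printed above, averaged 33.7 ± 0.715 CPM in shDis3l2 and 64.7 ± 2.99 CPM in shNS (SD, n = 3 each; log2 fold change -0.94, SE 0.11, adjusted p = 0.00589). Steap3, a ferrireductase of endosomes, averaged 10.4 ± 1.59 CPM in shDis3l2 and 30.8 ± 13.2 CPM in shNS (SD, n = 3 each; log2 fold change -1.56, adjusted p = 0.0285). Aco1 lost its call without shDis3l2 replicate 2 (adjusted p = 0.0516), and Steap3 without shDis3l2 replicate 1, 2 or 3 (0.0880, 0.135 and 0.118). Steap3 also lost it with the replicate number as a block (0.05355). Slc40a1, the iron exporter ferroportin, was chosen after its values were seen: it had 10.9, 3.15 and 2.54 CPM in shDis3l2, against 17.9, 111 and 6.88 CPM in shNS, and did not pass (log2 fold change -3.03, SE 1.19, adjusted p = 0.224). Its shNS replicate 2 and untreated shNS library (168 CPM) stood far above the rest, a split unlike that of Hmox1.

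In the glutathione, thioredoxin and NADPH list edgeR called 2 of 23 tested genes lower and none higher, beside 4.01% and 2.13% of all tested genes, at a median of -0.08. DESeq2 called 3 lower and 1 higher, beside 1104 lower and 644 higher of all tested genes. The 1 higher was Glrx, the glutaredoxin that reduces glutathionylated proteins. Glrx had 176, 92.5 and 87.7 CPM in shDis3l2, against 33.4, 21.3 and 61.0 CPM in shNS (log2 fold change 1.63 by edgeR, SE 0.45, adjusted p = 0.0903). Idh1, the cytosolic isocitrate dehydrogenase that makes NADPH, averaged 52.3 ± 9.29 CPM in shDis3l2 and 291 ± 110 CPM in shNS (SD, n = 3 each; log2 fold change -2.47, SE 0.29, adjusted p = 0.00574). Txnip, which binds and inhibits thioredoxin, averaged 253 ± 15 CPM in shDis3l2 and 424 ± 56.4 CPM in shNS (SD, n = 3 each; log2 fold change -0.74, adjusted p = 0.0325). Txnip lost its call whenever a library other than shNS replicate 3 was left out (adjusted p 0.0544 to 0.186), and with the replicate number as a block (0.0961). Over all 8 libraries it lost the call with doxycycline as a covariate (0.0704) and kept it with 4 groups (0.0365). Without doxycycline Txnip was at 289 CPM in both lines. Of 16 other tested NRF2 targets and detoxification genes, edgeR called 2 lower and none higher, DESeq2 4 lower and none higher, and limma-voom 1 lower and none higher. Of the 16, 14 had a negative sign, with a median of -0.26. The shares over all genes by edgeR, and the counts over all genes by DESeq2 and limma-voom, are those given above. Ephx1, microsomal epoxide hydrolase, averaged 2.31 ± 0.109 CPM in shDis3l2 and 31.3 ± 15.6 CPM in shNS (SD, n = 3 each; log2 fold change -3.75, SE 0.36, adjusted p = 0.00314), but was at 11.3 CPM in shDis3l2 and 10.2 CPM in shNS without doxycycline. Over all 8 libraries its call was lost with doxycycline as a covariate (0.0658) and kept with 4 groups (0.00434). Abcc5, an organic anion exporter, had 10.5, 14.7 and 18.5 CPM in shDis3l2, against 89.8, 211 and 40.2 CPM in shNS (log2 fold change -2.97, adjusted p = 0.0485), and lost its call without shDis3l2 replicate 1, 2 or 3 or shNS replicate 1 (0.0786 to 0.215).

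**Figure D4:**
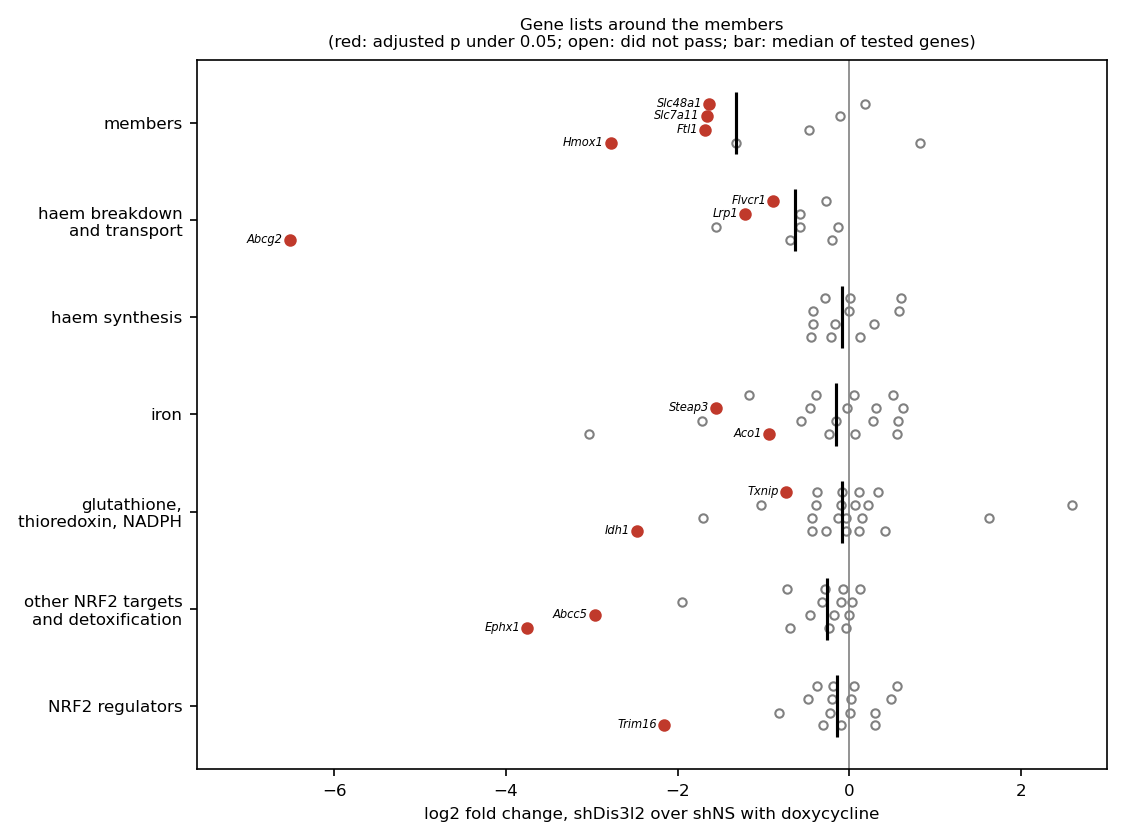
Each point is a tested gene, placed by its log2 fold change of shDis3l2 over shNS with doxycycline (horizontal axis) in its list (rows). Red points had an adjusted p under 0.05, open points did not, and bars mark list medians, which were -1.32 for the members and -0.64 for haem breakdown and transport but between -0.26 and -0.08 for the other lists.

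Of 16 tested regulators of NRF2, edgeR called 1 lower and none higher, at a median of -0.15, which is near the 4.01% of all tested genes called lower. The one called was Trim16, a ubiquitin ligase linked to NRF2 and p62 (sequestosome 1, Sqstm1), with 1.26, 0.963 and 1.77 CPM in shDis3l2, against 9.04, 2.75 and 6.07 CPM in shNS (log2 fold change -2.16, SE 0.47, adjusted p = 0.0432). It lost its call whenever a library other than shNS replicate 2 was left out (adjusted p 0.0702 to 0.180). The call was also lost by limma-voom (0.0716), with library size alone (0.0585), the replicate block (0.0695) and all 8 libraries as 4 groups (0.0519). The following regulators were chosen after their values were seen. Nfe2l2, which encodes NRF2, had 192, 142 and 147 CPM in shDis3l2, against 179, 161 and 332 CPM in shNS (log2 fold change -0.48, SE 0.29, adjusted p = 0.415). Keap1 was at 0.29 (SE 0.16, adjusted p = 0.367). Bach1 had 53.6, 72.4 and 82.8 CPM in shDis3l2, against 68.5, 31.7 and 69.7 CPM in shNS (log2 fold change 0.30, SE 0.32, adjusted p = 0.670). Atf4, whose product binds the amino acid response element printed for Slc7a11, was at 0.56 (SE 0.37, adjusted p = 0.469). Mafk, a small MAF partner of NRF2, was at 0.49 (SE 0.18, adjusted p = 0.176), with every shDis3l2 library above every shNS library. Sqstm1 had 223, 154 and 174 CPM in shDis3l2, against 204, 355 and 419 CPM in shNS (log2 fold change -0.82, SE 0.28, adjusted p = 0.144), and 155 CPM in shDis3l2 and 524 CPM in shNS without doxycycline. DESeq2 called Sqstm1 lower (adjusted p = 0.0371), as did edgeR over all 8 libraries with doxycycline as a covariate (-1.06, adjusted p = 0.0498). The libraries hold no measure of the proteins of these regulators.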

How the data were processed

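Total RNA was measured in 8 libraries made with a stranded kit that removes ribosomal RNA, per the labels' protocols. Per the submitters' processing notes, the authors used cutadapt, STAR 2.7 and RSEM with GRCm38 and mm10. For the annotation release and strand setting, nothing was given in the sources used here. Expected counts per gene were deposited without normalization by the authors and were rounded to whole numbers (4.68 to 5.24% of values were not whole). All 55450 identifiers matched GENCODE M21, which gave symbols and GRCm38 coordinates. Where genes share sequence, RSEM splits reads between them by estimate. The main comparison used the 6 doxycycline libraries, filterByExpr (minimum count 10), TMM and edgeR's robust quasi-likelihood test (R 4.3.3, edgeR 4.0.16), two-sided, with Benjamini-Hochberg adjustment over all tested genes and a threshold of 0.05. Doxycycline effects used all 8 libraries as 4 groups. The lone libraries without doxycycline were compared by log2 ratio (prior count 2) with exact conditional binomial intervals and no test. Alternatives used other scaling, filters, DESeq2 1.42.0, limma-voom (limma 3.58.1), other sets of libraries, added pseudogene counts, a replicate block and leaving out each library. The fits were also run on simulated counts with the same spread setting for every gene and library, and no result here rests on that run. No replicate pair agreed within counting noise (chi-square per gene at least 18.1). Named genes are all members, Dis3l2 and up to 3 called genes per list with the smallest adjusted p, or the 1 with the smallest p where none was called. Any other gene, such as Glrx, Ireb2, Csf1r and Cd68, was chosen after its values were seen. The members and lists were chosen with earlier results of these data known.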

Additional observations from a re-analysis of the deposited data

Results flagged for a closer look

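In 10 of the genes named above, all 3 doxycycline libraries of one line lay on one side of that line's untreated library and all 3 of the other line lay on the opposite side. This was so for 2 of 9 tested members and 18 of 102 other tested pathway genes, and for 12.4% of 15250 genes. For none of the 10 did edgeR's test of the difference between the doxycycline effects pass (adjusted p = 1 for each), and each untreated group is 1 library. Hmox1 was above its untreated library in shDis3l2 and below it in shNS, with a difference between the log2 effects of 1.05. Slc48a1 had the same order, with a difference of 1.06, and so had Cpox (0.29), Atf4 (1.12), Slc40a1 (3.49) and Aif1 (2.53). Txnip was below its untreated library in shDis3l2 and above it in shNS (-0.74), and so were Ephx1 (-3.90), Ireb2 (-0.26) and Csf1r (-0.51). Ephx1 had 2.40, 2.19 and 2.33 CPM with doxycycline and 11.3 CPM without it in shDis3l2, against 23.1, 21.4 and 49.2 CPM with doxycycline and 10.2 CPM without it in shNS.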

How the results depend on the processing

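Of the 9 tested members, 7 kept the sign of their difference between the lines under all 16 alternatives, and Gclm and Srxn1 did not. The number called lower was 4 under DESeq2's size factors, library size alone, a filter of 1 CPM in 3 libraries, pseudogene counts added and doxycycline as a covariate, and 5 by DESeq2. It was 2 with no low-count filter, 2 by limma-voom and 2 with all 8 libraries as 4 groups, and 0 to 4 when a library was left out. The number of genes called was 845, against 1748 by DESeq2, 1489 with doxycycline as a covariate and 203 to 1157 when a library was left out. With the replicate number as a block 397 genes and 1 member, Slc7a11, were called. Same-numbered libraries did not deviate together (r of -0.13, 0.03 and -0.00, against -0.12 to 0.10 for libraries with different numbers). The labels do not say whether same-numbered libraries were prepared together, and these values cannot settle it. The fits that left a library out used edgeR alone. The doxycycline effect in shDis3l2 gave 64 genes by DESeq2 with all libraries. By edgeR it gave 0 with all libraries and 0 when any library was left out. In shNS it gave 2 with no filter, 72 by DESeq2, 1 by limma-voom and 0 to 544 when a library was left out. The difference between these effects gave 2 with no filter, 34 by DESeq2 and 0 to 121 when a library was left out. Signs of log2 fold changes turned for Gclm between the lines (0.013 by limma-voom, 0.041 with the block, -0.35 to 0.42 when a library was left out) and for Srxn1 (-0.73 to 0.11 when a library was left out). With a library left out they also turned for doxycycline in Gclm (shDis3l2, -0.13 to 0.083), Ftl1 (shNS, -0.27 to 0.24) and Srxn1 (shNS, -0.32 to 0.57), and for the difference between these effects in Gclc (-0.09 to 0.51) and Srxn1 (-0.42 to 0.47, and 0.024 by limma-voom). Scaled by library size alone, the log2 ratio without doxycycline was 0.020 for Fth1, -2.32 for Ftl1, 0.75 for Gclc and -0.46 for Txnrd1. The cause of these changes was not tested. Intervals cover counting error only, and Nqo1 was at most 5 counts in any library.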
